A study of Mus musculus with 12 samples.

Results

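Integrins and laminins are a receptor family and one of its main ligand families. The 36 genes described here were taken from the 24421 entries of the table by symbol alone, as all Itga and Itgb genes and all laminin chains Lama, Lamb and Lamc. Itgam, a gene of myeloid cells, was left out by the same rule. They comprise 25 integrin subunits and 11 laminin chains. The samples were cells sorted for green fluorescent protein (GFP) from the cerebellum of Aldh1l1-GFP mice, in which GFP reports Aldh1l1, an enzyme gene widely used to mark astrocytes. All groups shared this genotype, the C57/BL6J background and the absence of any treatment, mice of both sexes were used, and the groups differed in age. There were 4 ages, the postnatal days 1 (P1), 7 (P7), 14 (P14) and 28 (P28), with 3 RNA libraries at each. Neither the labels nor the methods say whether the 3 libraries of an age came from separate animals, so each p-value measures the spread between libraries, which may be technical.

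An integrin is a pair of an alpha and a beta chain that spans the membrane and ties the matrix outside to the cytoskeleton inside. The alpha chain largely sets the ligand. Chains alpha 3, 6 and 7 with beta 1 bind laminin, alpha 1, 2, 10 and 11 bind collagen, and alpha v, 5, 8 and IIb recognise the RGD motif found in fibronectin, vitronectin and the latent form of TGF-beta. A laminin is a trimer of 1 alpha, 1 beta and 1 gamma chain, and it is the scaffold of the basement membrane. In the cerebellum, Bergmann glia attach their endfeet to the basement membrane under the meninges, and astrocyte endfeet meet the basement membrane around blood vessels. Integrin alpha v beta 8 on radial glia and astrocytes is known for releasing active TGF-beta beside vessels.

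The libraries held from 6399499 to 14733985 reads on genes. The deposited values are counts that the authors scaled by a size factor for each library, and are called normalized counts below. A value scaled by exon length and by reads on genes (RPKM, reads per kilobase of exon and per fixed number of reads) is used where the levels of members are compared with each other. Markers of astrocytes and of Bergmann glia were present at every age. The 10 astrocyte markers summed to between 55929 and 72377 normalized counts at P1, 27608 and 51333 at P7, 146551 and 184185 at P14, and 348122 and 406847 at P28. Aldh1l1 itself was lower at P7 than at P1 by 1.80 on the log2 scale (adjusted p = 0.000466, limma). It was also called lower from P1 to P28, where 8 of the 10 astrocyte markers were called higher. The sorted cells also carried reads of other cell types. The 9 oligodendrocyte markers summed to between 1519 and 2469 at P1, 22123 and 34053 at P7, 345338 and 394417 at P14, and 105474 and 146209 at P28. The 6 choroid plexus markers summed to between 1160 and 2598 at P1, 48448 and 128615 at P7, 1314 and 110124 at P14, and 17933 and 182966 at P28. The 6 granule neuron precursor markers summed to between 3885 and 7377 at P1, 13886 and 16706 at P7, 6226 and 9108 at P14, and 6261 and 6762 at P28. The 5 granule neuron markers summed to between 1938 and 2662, 3437 and 8049, 12212 and 22185, and 8536 and 8754 at the same ages. The 9 markers of fibroblasts and meninges summed to 19890, 35996 and 8756 in the libraries of P1, 9641, 21555 and 14656 at P7, between 9062 and 12168 at P14, and between 4945 and 5783 at P28. The 10 endothelial markers summed to 832, 4062 and 1191 at P1, 2884, 11336 and 1824 at P7, between 5669 and 6743 at P14 and between 3389 and 4780 at P28. Replicate 2 of P1 and replicate 2 of P7 thus had the highest endothelial and fibroblast sums of their ages. In such bulk samples, fewer cells of a type and less RNA per cell cannot be told apart.

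Of the 36 genes, 34 reached a normalized count of 10 in 3 or more libraries and were tested, and Itgad and Itgax were not. A gene was called changed when its adjusted p was under 0.05 (limma on log2(value + 1), Benjamini-Hochberg over 15464 genes) and its log2 fold change was over 0.75 in either direction. From P1 to P7, 4 of the 36 genes were called, all of them lower, which is 11.1% against 7.01% of all genes tested (3.1% higher and 3.91% lower). At an unadjusted p under 0.05, 3 were higher and 5 lower in this step, where all genes gave 6.94% and 7.27%, and DESeq2 called 1 member higher and edgeR 0. From P7 to P14, 3 were called higher and 1 lower, or 11.1% against 18.8% of all genes (10% higher and 8.79% lower). From P14 to P28, 1 was called higher and 7 lower, or 22.2% against 13.1% (4.58% higher and 8.53% lower). Over the whole span from P1 to P28, 3 were called higher and 8 lower, and this 30.6% was close to the 32% of all genes (13.3% higher and 18.7% lower). Member shares are taken over all 36, the untested Itgad and Itgax included, so they are slightly lower than shares of the 34 tested. The shares of all genes are taken over tested genes only. In the 3 consecutive steps (the first, second and last step below) 12 of the 36 were called, 4 of them in 2 steps. The other calls from P1 to P28 were those of Itga2, Itga3, Lama2 and Lamb1, and 20 genes were called in no comparison. Lamb3 and Itgb6, both called in a step, passed the filter on low values mainly through the age of their highest mean. The median log2 fold change over the 34 tested genes was -0.19, -0.06, -0.56 and -0.66 in these 4 comparisons, beside 0.04, -0.09, -0.12 and -0.24 over all genes tested. In level per length, averaged over the 12 libraries, 9 of the 36 genes reached 10 RPKM and 12 were under 1 RPKM. The leading integrins were Itgb1 (48.2), Itgav (28) and Itga6 (17.8), and the leading laminins Lamc1 (31.6), Lama2 (15.2) and Lamb2 (14.5).

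**Figure D1:**
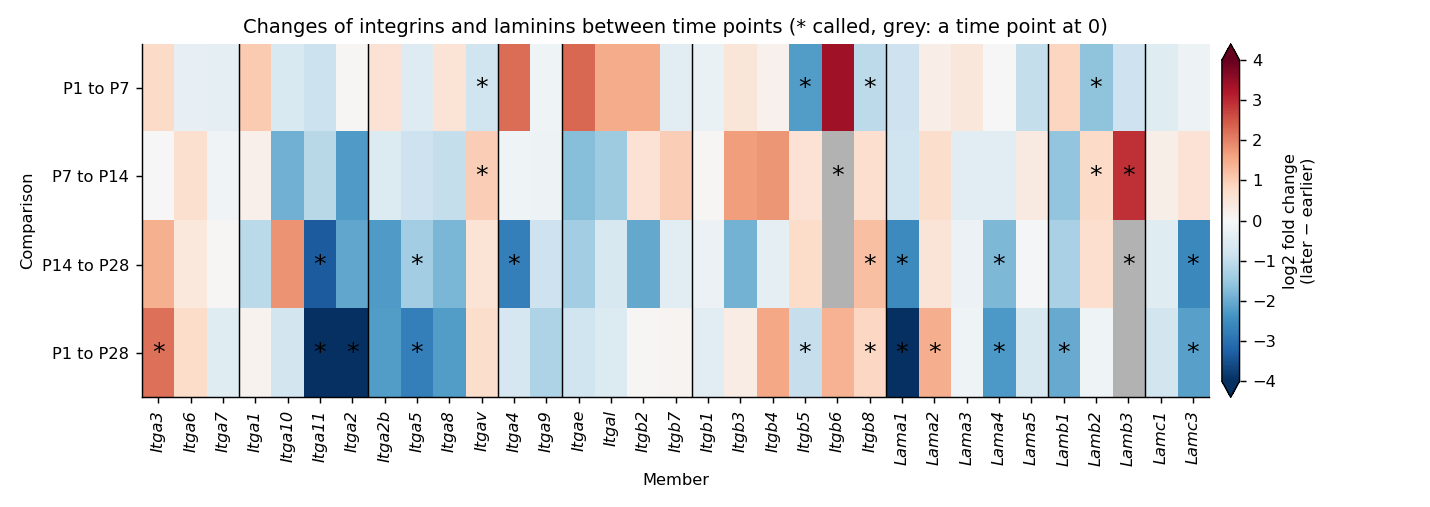
Log2 fold changes (later minus earlier) of the tested integrin and laminin genes reported here (columns, grouped by role with vertical lines) in the 4 comparisons (rows). Asterisks mark called genes, grey cells have an age with 0 in all 3 libraries, and colours end at the bounds of the scale. Asterisks of the first row (4) are all on lower genes, and 7 of the 8 in the third row are.

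Integrin alpha v, its partners beta 5 and beta 8 and the laminin chain Lamb2 were the 4 genes called lower between P1 and P7. All 4 had their lowest mean at P7. Itgav fell by 0.79 on the log2 scale, Itgb8 by 1.05, Lamb2 by 1.62 and Itgb5 by 2.24. For these 4 genes, picked by their calls in that step, the stretch of 250 bases before their RefSeq start sites was read on GRCm38.p6. Of the 36 genes, 22 had an entry there, with 25 promoters. The stretches of Itgb8 (250 bases) and Lamb2 (48 bases) reach into exons annotated by GENCODE, so only the other 2 are printed, 5′ to 3′ on the plus strand, at chr2:83724147-83724396 for Itgav and chr16:33829415-33829664 for Itgb5. Capitals mark the GC box (GGGCGG on either strand) and the CCAAT box.
Itgav: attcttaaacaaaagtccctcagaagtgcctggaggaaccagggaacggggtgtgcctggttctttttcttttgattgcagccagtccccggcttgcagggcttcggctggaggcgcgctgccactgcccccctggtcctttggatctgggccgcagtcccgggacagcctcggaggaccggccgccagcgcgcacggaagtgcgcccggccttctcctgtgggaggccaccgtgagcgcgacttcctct
Itgb5: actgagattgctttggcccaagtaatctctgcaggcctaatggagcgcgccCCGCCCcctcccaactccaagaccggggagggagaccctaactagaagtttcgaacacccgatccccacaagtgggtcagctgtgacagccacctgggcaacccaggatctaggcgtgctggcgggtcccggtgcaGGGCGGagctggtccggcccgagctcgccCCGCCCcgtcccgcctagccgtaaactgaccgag

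Neither motif was shared by the 4 stretches. The Itgb5 stretch held 3 GC boxes and the other 3 stretches held 0, while 32.7% of 32851 mouse promoters of this length had at least 1. A CCAAT box was found once, in Itgb8, against 33.9% of all promoters. The short NFI motif (TTGGC on either strand, which can overlap a CCAAT box) occurred 3 times in Itgb8 and once in Itgb5, with a share of 41.5% among all promoters. The AP-1 site (TGANTCA, 6.75% of all promoters) and the TATA box (TATAAA, 12.4%) were in none of the 4. The stretches of Itgav and Itgb5 had 64.4% and 65.2% G or C and 18 CpG each, that of Itgb8 had 62.4% and 12, and that of Lamb2 had 43.6% and 3. The medians over all promoters were 52.4% and 6. A match of letters is a description and no site of binding.

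Itgav (chromosome 2, 83724397 to 83806916, plus strand, GRCm38) encodes alpha v, which pairs with several beta chains and binds RGD ligands. It had 2524, 3454 and 2567 normalized counts in the libraries of P1, 1623, 1619 and 1653 at P7, 3067, 3500 and 3066 at P14, and 4880, 4500 and 4536 at P28. The libraries of P7 lay below all others, and those of P28 above all others. The fall from P1 to P7 (-0.79 ± 0.15 SE, adjusted p = 0.00423) was followed by a rise from P7 to P14 (0.97 ± 0.15, adjusted p = 0.0003). From P14 to P28 the change of 0.53 had an adjusted p of 0.0281 but was below the fold threshold, as was that of 0.72 from P1 to P28 (adjusted p = 0.00193). Without P1 replicate 2 the first change was -0.64 (adjusted p = 0.019), under the fold threshold. Scaled by library totals alone, both steps were just under it (-0.73 and 0.72), or -0.82 and 1.06 relative to the median of all genes.

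Itgb8 (chromosome 12, 119158022 to 119238802, minus strand) encodes the beta chain that pairs with alpha v alone. It had 1771, 1611 and 1786 normalized counts at P1, 1010, 616 and 912 at P7, 1395, 1687 and 987 at P14, and 3376, 2742 and 3079 at P28. The P28 libraries were the highest of all, and P7 overlapped P14 through P14 replicate 3. Itgb8 fell between P1 and P7 (-1.05 ± 0.22, adjusted p = 0.00767) and rose from P14 to P28 (1.21 ± 0.22, adjusted p = 0.00333). Between P7 and P14 the change was 0.68 (adjusted p = 0.0398), under the fold threshold. Over the whole span it rose by 0.83 (adjusted p = 0.00933). That last call was lost with library totals alone (0.39, adjusted p = 0.158, or 1.05 relative to the median of all genes), and the first with P1 replicate 2 and P7 replicate 2 both left out (-0.89, adjusted p = 0.0782).

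Itgb5 (chromosome 16, 33829665 to 33949338, plus strand), another partner of alpha v and a vitronectin receptor chain, showed the deepest fall of the first step among the tested members. Its values were 1012, 1080 and 747 normalized counts at P1, 202, 208 and 181 at P7, 364, 360 and 198 at P14, and 460, 605 and 423 at P28. No library of a later age reached the lowest of P1. Itgb5 fell by 2.24 ± 0.28 in the first step (adjusted p = 0.000244), and over the whole span it fell by 0.93 (adjusted p = 0.019). The steps to P14 (0.59, adjusted p = 0.164) and to P28 (0.73, adjusted p = 0.0966) were not called. The lower level at P28 was not called without P1 replicate 1 (adjusted p = 0.0715) or P1 replicate 2 (adjusted p = 0.072).

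Astrocyte markers moved beside these genes. From P1 to P7, 5 of the 10 astrocyte markers were called lower (Aldh1l1, Gja1, Sox9, Fgfr3 and Aldoc) and 2 higher (Gfap and S100b). Among all genes tested, 3.91% were called lower and 3.1% higher in this step. From P7 to P14, 8 of the 10 were called higher, and from P14 to P28 also 8. Among all genes tested, 10% and 4.58% were called higher in these steps, and 8.79% and 8.53% lower. The 2 sets differed, with Fgfr3 only in the earlier and Gfap only in the later. None of the 10 was at 0 at any age. Markers of other cell types moved in the first step too. From P1 to P7, 3 of 6 choroid plexus markers and 8 of 9 oligodendrocyte markers were called higher and 0 lower. So were 2 of 6 granule neuron precursor markers and 4 of 5 granule neuron markers, again with 0 lower. Of 5 oligodendrocyte precursor markers, 2 were called lower and 0 higher. From P7 to P14, 9 of 9 oligodendrocyte and 4 of 5 granule neuron markers were called higher and 0 lower. Granule neuron precursor markers gave 3 lower and 0 higher, oligodendrocyte precursor markers 2 higher and 1 lower, and choroid plexus markers 0 calls. From P14 to P28 these lists had 0 markers called higher. Called lower were 7 oligodendrocyte, 3 oligodendrocyte precursor, 2 granule neuron precursor, 2 granule neuron and 1 choroid plexus marker. The part of any of these cell types in the changes of Itgav, Itgb5, Itgb8 and Lamb2 was not tested.

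The ratio of Itgb5 to Itgb8, which does not depend on the scaling of libraries, shows that the partners did not move alike. Per exon length it lay between 1.30 and 2.09 at P1, 0.617 and 1.05 at P7, 0.623 and 0.813 at P14, and 0.424 and 0.687 at P28. The P1 libraries lay above all those of later ages. Exact permutation of 3 libraries against 3 cannot give a two-sided p below 0.1, so no p is given for such ratios. Among the 5 beta chains that can pair with alpha v, Itgb5 held 27.1% ± 2.6 (SD, n = 3) of the summed level per length at P1. This share was 9.29% ± 0.59 at P7, 12.3% ± 2.8 at P14 and 17.1% ± 4.2 at P28. Itgb8 held 16.1% ± 2.4, 13.1% ± 4.2, 17.5% ± 2.6 and 33.6% ± 2.3 at the same ages, and Itgb1 56.2% ± 0.94, 76.3% ± 4.3, 67.6% ± 4.4 and 48.4% ± 3.8. Itgb3 and Itgb6 were minor at all ages, with at most 3.57% in any library. Itgb1 also pairs with many other alpha chains, so its share is not a share of alpha v pairs.

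**Figure D2:**
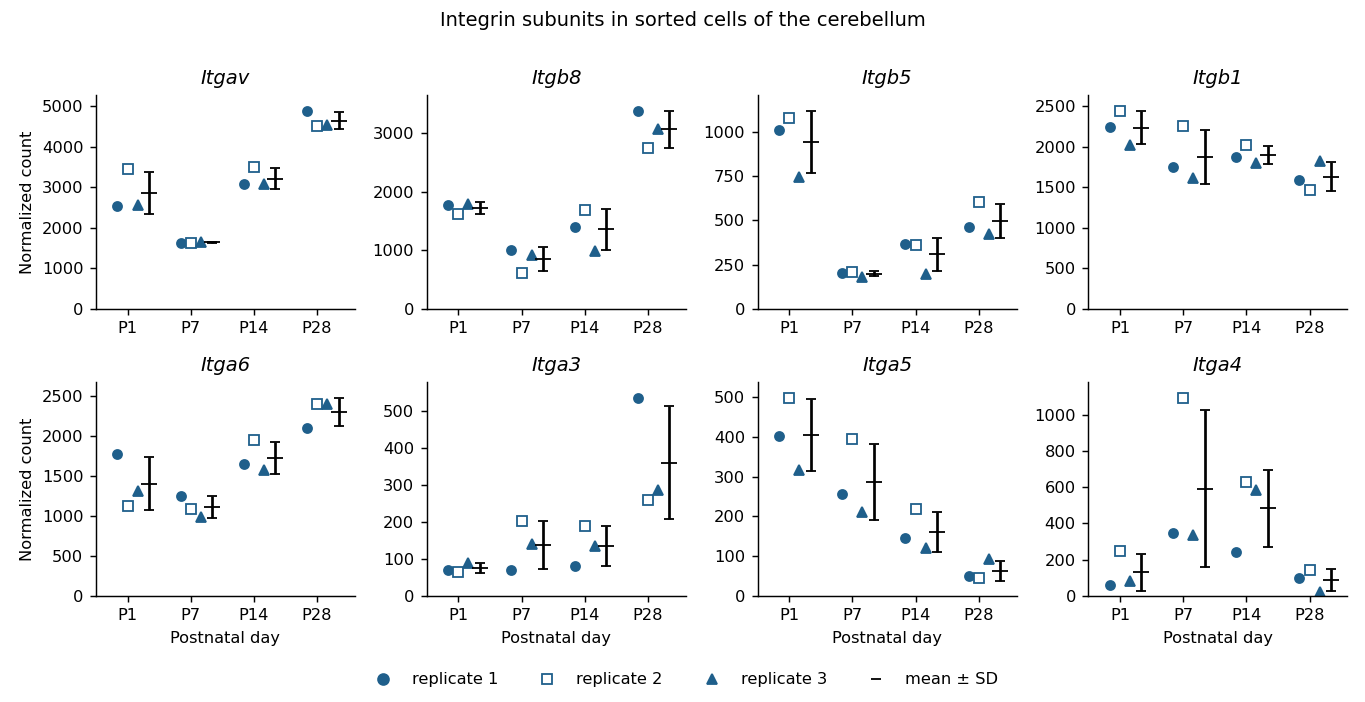
Normalized counts of 8 integrin subunits at the 4 ages, with one marker shape per replicate number and the mean ± SD beside each group of 3 libraries. Itgav, Itgb8 and Itgb5 are at their lowest mean at P7, and Itga5 runs from between 316 and 499 at P1 to between 44.8 and 92 at P28.

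Integrin beta 1 and alpha 6, chains of the main laminin receptors, were called in no comparison. Itgb1 (chromosome 8, 128685654 to 128733200, plus strand), the common partner of the laminin-, collagen- and fibronectin-binding alpha chains, had the highest level per length of the 36 genes, with a mean of 48.2 RPKM over the 12 libraries. Itgb1 had 2250, 2439 and 2027 normalized counts at P1, 1756, 2256 and 1613 at P7, 1879, 2023 and 1799 at P14, and 1590, 1472 and 1827 at P28. Neighbouring ages overlapped throughout, and no step was called. Between P1 and P28 it differed by -0.46 (adjusted p = 0.0421), under the fold threshold.

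Itga6 (chromosome 2, 71745616 to 71858416, plus strand; mean 17.8 RPKM) is the laminin-binding alpha chain with the highest level here. It had 1774, 1122 and 1313 normalized counts at P1, 1251, 1085 and 985 at P7, 1651, 1942 and 1574 at P14, and 2097, 2395 and 2404 at P28. The P28 libraries lay above all others. The changes of 0.64 from P7 to P14 (adjusted p = 0.024) and 0.74 from P1 to P28 (adjusted p = 0.00707) stayed under the fold threshold. Itga6 made up between 67.9% and 84.6% of the summed level per length of the 3 laminin-binding alpha chains in every library.

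Itga3, the alpha chain that binds laminins with alpha 3 and alpha 5 chains, was low until P28. It is described by library although it was called over the whole span only, a choice made after its values were seen. It had 69.5, 64.3 and 89.4 normalized counts at P1, 70.9, 203 and 140 at P7, 81.5, 189 and 135 at P14, and 536, 259 and 285 at P28. All P28 libraries were above all others, with P28 replicate 1 the highest. It rose by 2.20 ± 0.48 from P1 to P28 (adjusted p = 0.00269, and between 0.00224 and 0.0122 with 1 library left out). The step from P14 to P28 was 1.41 (adjusted p = 0.0615). Itga7, the third of these chains and known from muscle, was called in no comparison, with means between 131 and 197 normalized counts and one P28 library at 406 beside 58.5 and 80.2.

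Per exon length, the laminin alpha chains exchanged rank over the 4 weeks. Lama1 fell and Lama2 rose, so that alpha 2 was the main alpha chain from P14, and Lama4 fell late. The order at P1 rests on the exon lengths used, 9681 bases for Lama1 and 16338 for Lama2. In normalized counts Lama2 was above Lama1 in every library of P1 too. Lama1 (chromosome 17, 67697259 to 67822647, plus strand) encodes alpha 1, the chain of embryonic and meningeal basement membranes. It had 1216, 1684 and 1121 normalized counts at P1, 661, 779 and 820 at P7, 557, 348 and 419 at P14, and 113, 63.7 and 54.1 at P28. Each age lay wholly below the one before it. The steps to P7 (-0.81 ± 0.30, adjusted p = 0.126) and to P14 (-0.79 ± 0.30, adjusted p = 0.0746) were not called, while from P14 to P28 Lama1 fell by 2.55 ± 0.30 (adjusted p = 0.00029). Between P1 and P28 it fell by 4.16 ± 0.30 (adjusted p = 1.62e-07), a call kept in all 12 fits with 1 library left out.

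Lama2 (chromosome 10, 26980036 to 27619758, minus strand) encodes alpha 2, the chain lost in merosin-deficient muscular dystrophy and present in the basement membranes that astrocyte endfeet contact. It had 1565, 1858 and 1130 normalized counts at P1, 1605, 1807 and 1905 at P7, 2818, 3156 and 2685 at P14, and 4773, 3360 and 4223 at P28. P1 and P7 overlapped, and both later ages lay above the ones before. Over the whole span Lama2 rose by 1.45 ± 0.19 (adjusted p = 5.05e-05). The change between P7 and P14 was 0.70 (adjusted p = 0.0169), under the fold threshold, and that from P14 to P28 was 0.50 (adjusted p = 0.094).

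The ratio of Lama1 to Lama2 per exon length lay between 1.31 and 1.68 at P1, 0.695 and 0.727 at P7, 0.186 and 0.334 at P14, and 0.0216 and 0.0398 at P28. No range overlapped its neighbour. The exon lengths used set the height of this ratio in all libraries alike, and not its order between ages. As a share of the 5 alpha chains per length, Lama1 made up 37.2% ± 2.5 (SD, n = 3) at P1 and 2.55% ± 0.79 at P28, with 25.0% ± 5.2 and 14% ± 3.0 in between. Lama2 made up 24.9% ± 2.6, 35.0% ± 7.5, 54.6% ± 6.5 and 81.7% ± 2.5. Markers of fibroblasts and meninges moved beside Lama1. From P1 to P28, 7 of 9 were called lower, beside 18.7% of all genes, and none was at 0 at any age. Their summed level had medians of 19890, 14656, 9677 and 5005 normalized counts at P1, P7, P14 and P28. At P1 this sum was 19890, 35996 and 8756 in replicates 1 to 3. In the same libraries Lama1 had 1216, 1684 and 1121 normalized counts and Lama2 1565, 1858 and 1130, both in the order of the sum. The ratio of Lama1 to Lama2 was 1.31, 1.53 and 1.68 there. The part of these cells in the change of Lama1 was not tested.

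Lama4 (chromosome 10, 38965515 to 39110188, plus strand) encodes alpha 4, a chain of the basement membranes of blood vessels. It had 903, 2036 and 884 normalized counts at P1, 768, 2230 and 904 at P7, 961, 781 and 783 at P14, and 210, 155 and 421 at P28. The highest values were in P1 replicate 2 and P7 replicate 2, the libraries with the highest endothelial, mural and fibroblast sums of their ages. All P28 libraries were below all others. It fell by 1.80 ± 0.43 after P14 (adjusted p = 0.0141, and 0.0534 without P14 replicate 1). Over the whole span Lama4 fell by 2.29 ± 0.43 (adjusted p = 0.000987). From P14 to P28, 1 of the 10 endothelial markers (Kdr) and 2 of the 10 mural markers (Rgs5 and Kcnj8) were called lower, beside 8.53% of all genes. At an unadjusted p under 0.05, 2 endothelial and 7 mural markers were lower, beside 16.3% of all genes, with a median log2 fold change of -0.59 and -1.79. The mural markers summed to between 5039 and 5293 normalized counts at P14 and between 2153 and 4310 at P28. The part of vessel cells in the fall of Lama4 was not tested.

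Lama5, the widespread alpha 5 chain of adult basement membranes, and Lama3, known from epithelia, were called in no comparison. Lama5 had group means between 213 and 389 normalized counts, and Lama3 between 54.2 and 96.4. The spread between libraries of an age was wide for both, with Lama5 at 201, 154 and 552 in the libraries of P14.

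**Figure D3:**
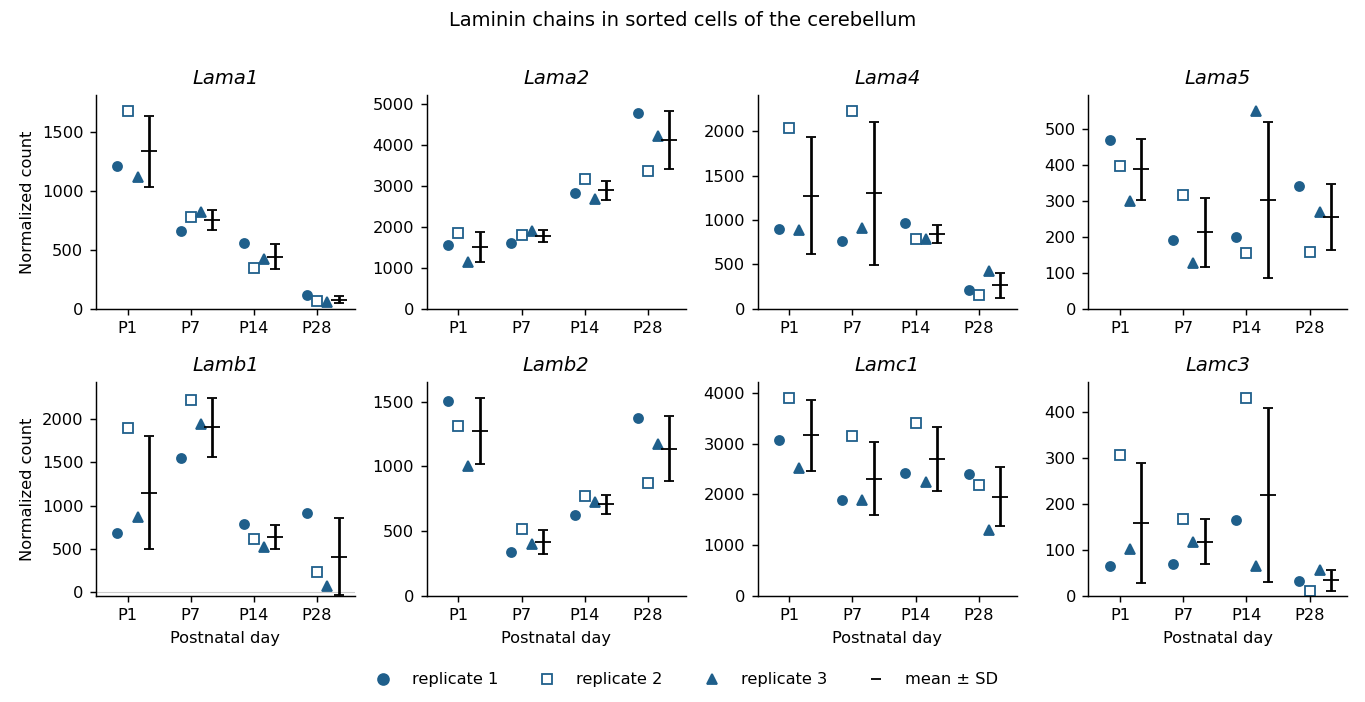
Normalized counts of 8 laminin chains at the 4 ages, with one marker shape per replicate number and the mean ± SD beside each group of 3 libraries. Lama1 drops from between 1121 and 1684 at P1 to between 54.1 and 113 at P28, Lama2 is highest at P28, and Lamb2 is lowest at P7.

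Among the beta chains, Lamb2 and Lamb1 were in opposite balance at P7. Lamb2 (chromosome 9, 108479736 to 108490530, plus strand) encodes beta 2, a chain of synaptic, vascular and pial basement membranes. It had 1505, 1315 and 1003 normalized counts at P1, 334, 512 and 399 at P7, 621, 767 and 728 at P14, and 1371, 873 and 1168 at P28. P7 lay below all other ages, and P1 and P28 overlapped. Lamb2 fell by 1.62 ± 0.23 in the first step (adjusted p = 0.000678) and rose by 0.78 ± 0.23 from P7 to P14 (adjusted p = 0.0274), while the change from P14 to P28 was 0.67 (adjusted p = 0.0684). The rise to P14 was not called with library totals alone (0.52, adjusted p = 0.127, or 0.86 relative to the median of all genes) or without P7 replicate 1 (adjusted p = 0.129), P7 replicate 3 (0.0846), P14 replicate 2 (0.0934) or P14 replicate 3 (0.074).

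Lamb1, the beta 1 chain of most embryonic laminins, was named for its values by library after they were seen. It had 687, 1897 and 868 normalized counts at P1, 1544, 2221 and 1946 at P7, 792, 619 and 518 at P14, and 919, 238 and 77.1 at P28. All P7 libraries were above those of P14 and P28, the other ages overlapped, and the 3 libraries of P28 covered a wide range. From P1 to P28 it fell by 2.01 ± 0.62 (adjusted p = 0.0223). This call was lost without P1 replicate 2 (-1.58, adjusted p = 0.0993), P28 replicate 2 (adjusted p = 0.0505) or P28 replicate 3 (-1.15, adjusted p = 0.0813), with edgeR (adjusted p = 0.0842) and DESeq2 (adjusted p = 0.101), and with 2 time points alone in the fit (0.0993). Per length, the ratio of Lamb1 to Lamb2 lay between 0.280 and 0.885 at P1, 2.66 and 2.99 at P7, 0.437 and 0.783 at P14, and 0.0405 and 0.411 at P28. All P7 libraries were above all others. Lamb1 thus made up 73.7% ± 1.1 (SD, n = 3) of the beta chains per length at P7, against 34.4% ± 12.5 at P1, 35.1% ± 7.2 at P14 and 15.8% ± 12.7 at P28.

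Lamb3, a beta chain of epithelial laminin, was near 0. It had 4.31, 11.4 and 1.51 normalized counts at P1, 7.96, 0 and 2.33 at P7, 16.9, 40.2 and 16.3 at P14, and 0 in all 3 libraries of P28. Against a floor of 3 reads per library its P28 level was at least 6.13-fold lower than that of P14 (adjusted p = 0.00671), and at least 4.16-fold lower with the library left out that lowers this bound most. Lamb3 reached 10 normalized counts only in the 3 P14 libraries and P1 replicate 2, so it passed the filter through the age where it was high. Its calls to and from P14 are therefore given as a description. The rise from P7 to P14 (2.91 ± 0.94, adjusted p = 0.0399) was not called by edgeR (adjusted p = 0.158) or DESeq2 (0.186) or with the replicate block (0.055) or a pseudocount of 0.1 (0.0888). It was also not called without P1 replicate 1 (0.0571), P7 replicate 2 (0.196), P7 replicate 3 (0.0984), P14 replicate 1 (0.0634), P14 replicate 2 (0.128) or P14 replicate 3 (0.0582), as adjusted p-values.

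Lamc1 (chromosome 1, 153218922 to 153332786, minus strand), the gamma 1 chain of nearly all laminins, was the second of the 36 genes in level per length, with a mean of 31.6 RPKM. It had 3077, 3900 and 2513 normalized counts at P1, 1892, 3140 and 1896 at P7, 2418, 3414 and 2239 at P14, and 2399.6, 2176 and 1291 at P28. Neighbouring ages overlapped throughout, and no comparison was called (P1 to P28 -0.72, adjusted p = 0.0506). Lamc3, the gamma 3 chain described in brain and retina, had 64, 307 and 101 normalized counts at P1, 69.3, 166 and 116 at P7, 164, 429 and 64.1 at P14, and 32.2, 10.6 and 56.8 at P28. The P28 libraries were the lowest, and replicate 2 was the highest library of every earlier age. The last step (-2.57 ± 0.79, adjusted p = 0.042) was lost without P1 replicate 3, P7 replicate 1, 2 or 3, P14 replicate 1 or 2, or P28 replicate 1 or 2 (adjusted p between 0.0525 and 0.169). That from P1 to P28 (-2.17, adjusted p = 0.0445) was lost without P1 replicate 2 or 3, P7 replicate 1, 2 or 3, P14 replicate 1, or P28 replicate 1 or 2 (adjusted p between 0.0541 and 0.191). With 2 time points alone in the fit both were lost too (adjusted p = 0.183 and 0.108), as they were with no filter on low values (0.0572 and 0.0568).

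**Figure D4:**
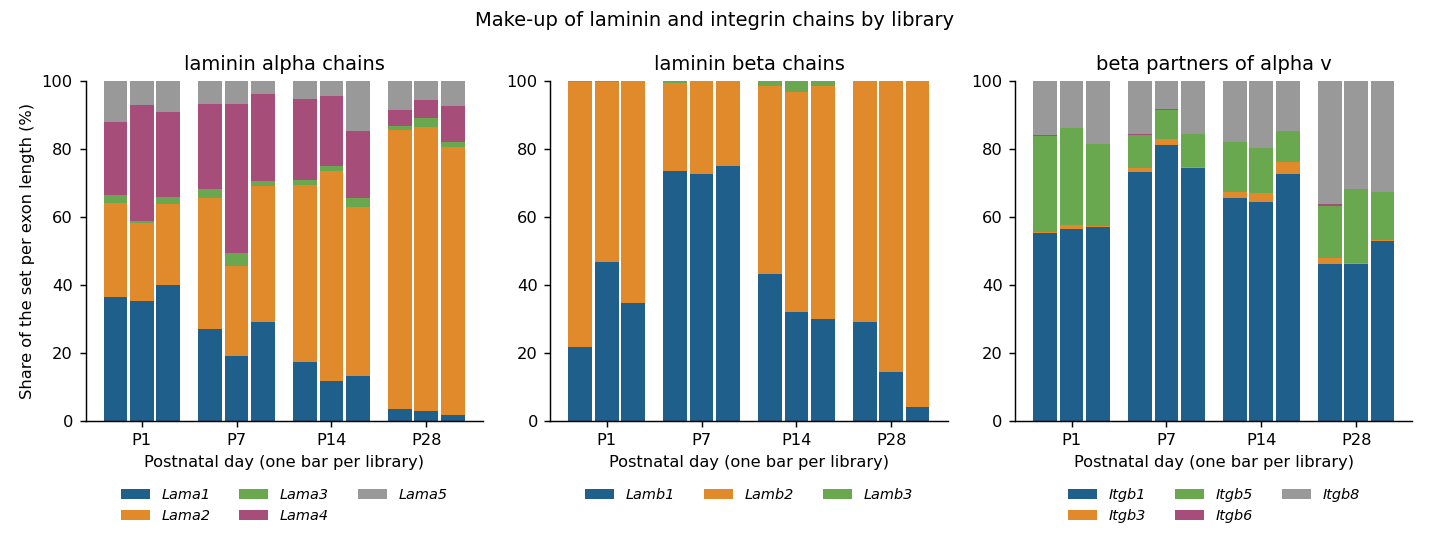
Share of each chain in the summed level per exon length (%) of the laminin alpha chains, the laminin beta chains and the beta chains able to pair with alpha v, with one stacked bar per library in the order of replicates 1 to 3. The share of Lama1 shrinks from P1 to P28 as that of Lama2 grows to at least 78.8%, Lamb1 exceeds Lamb2 in the P7 bars, and Itgb8 holds at least 31.7% at P28.

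Among the RGD-binding and collagen-binding alpha chains other than alpha v, Itga5, Itga11 and Itga2 fell and the other 4 were called in no comparison. Itga5 (chromosome 15, 103344286 to 103366763, minus strand), the classical fibronectin receptor chain, had 403, 499 and 316 normalized counts at P1, 256, 394 and 212 at P7, 145, 218 and 121 at P14, and 49.7, 44.8 and 92.0 at P28. All P28 libraries were below all others, and the earlier ages overlapped in part. Itga5 fell by 2.74 ± 0.40 over the whole span (adjusted p = 0.000119). The fall from P14 to P28 (-1.39 ± 0.40, adjusted p = 0.0314) was lost with 2 time points alone in the fit (adjusted p = 0.231) and without P1 replicate 1, P7 replicate 1, P14 replicate 1 or 2, or P28 replicate 1 or 2 (between 0.0503 and 0.111). The ratio of Itgav to Itga5 per length lay between 2.88 and 3.73 at P1, 1.89 and 3.59 at P7, 7.38 and 11.7 at P14, and 22.6 and 46.1 at P28. Itga8, which binds nephronectin, and Itga2b, the platelet chain, were called in no comparison, with group means of at most 264 and 17.1 normalized counts.

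The 4 collagen-binding chains gave 2 falls over the whole span. Itga11 (chromosome 9, 62677826 to 62783982, plus strand), a collagen receptor chain of fibroblasts, had 159, 648 and 207 normalized counts at P1, 112, 215 and 147 at P7, 128, 48.7 and 53.2 at P14, and 19.0, 0 and 16.2 at P28. Its highest library was P1 replicate 2, which also had the highest sum of fibroblast and meningeal markers, and all P28 libraries were below all others. It fell by 5.31 ± 0.96 between P1 and P28 (adjusted p = 0.000743, and at most 0.00577 with 1 library left out). In the last step it fell by 3.33 ± 0.96 (adjusted p = 0.0332), which was lost without P14 replicate 1 (adjusted p = 0.121), P14 replicate 2 (0.0606), P14 replicate 3 (0.0741) or P28 replicate 2 (-1.92, 0.0524). It was also lost with 2 time points alone in the fit (adjusted p = 0.206), with a pseudocount of 0.1 (0.0647) and with P1 replicate 2 and P7 replicate 2 both left out (0.0526). The part of fibroblasts in these falls was not tested.

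Itga2, a collagen and laminin receptor chain, had group means of 86.7 ± 61.5, 86.1 ± 48.4, 16.5 ± 8.39 and 8.24 ± 13.1 normalized counts (SD, n = 3) at the 4 ages, and fell by 4.29 ± 1.03 from P1 to P28 (adjusted p = 0.00516). Itga10, a cartilage chain that shares 1739 exon bases on the same strand with another annotated gene, was called in no comparison. Itga1, a collagen and laminin receptor chain of vessel cells, was called in no comparison either. Its values, singled out after they were seen, were 130, 341 and 219 normalized counts at P1, 315, 906 and 302 at P7, 516, 523 and 475 at P14, and 253, 387 and 137 at P28. Its highest library, P7 replicate 2, was also the library with the highest endothelial sum and the lowest astrocyte sum of the 12.

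Itga4, which pairs with beta 1 or beta 7 and binds VCAM-1 and fibronectin, peaked in the same library. It had 60.3, 245 and 79.5 normalized counts at P1, 345, 1093 and 337 at P7, 240.4, 629 and 583 at P14, and 97.9, 142 and 20.3 at P28. All P28 libraries were below those of P7 and P14. Itga4 fell by 2.74 ± 0.72 in the last step (adjusted p = 0.0219), and the difference of 2.24 from P1 to P7 had an adjusted p of 0.079. The fall was lost without P14 replicate 2 (adjusted p = 0.08), P14 replicate 3 (0.0847) or P28 replicate 3 (-1.91, 0.0583), and with 2 time points alone in the fit (0.0961). In the annotation 1124 exon bases of Itga4 lie opposite exons of Cerkl, and whether strand was used in counting is not stated in the sources used here. Itgav and Lama2 have 634 and 631 exon bases opposite other annotated genes in the same way. From P1 to P7, 0 of the 10 endothelial markers were called, beside 7.01% of all genes. At an unadjusted p under 0.05, 7 of the 10 were higher, beside 6.94% of all genes. No endothelial marker was at 0 at any age. The part of endothelial cells in the levels of Itga1 and Itga4 was not tested. Itga9, the alpha chain grouped here with Itga4, was called in no comparison and had 491, 129 and 31.1 normalized counts in the libraries of P28.

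**Figure D5:**
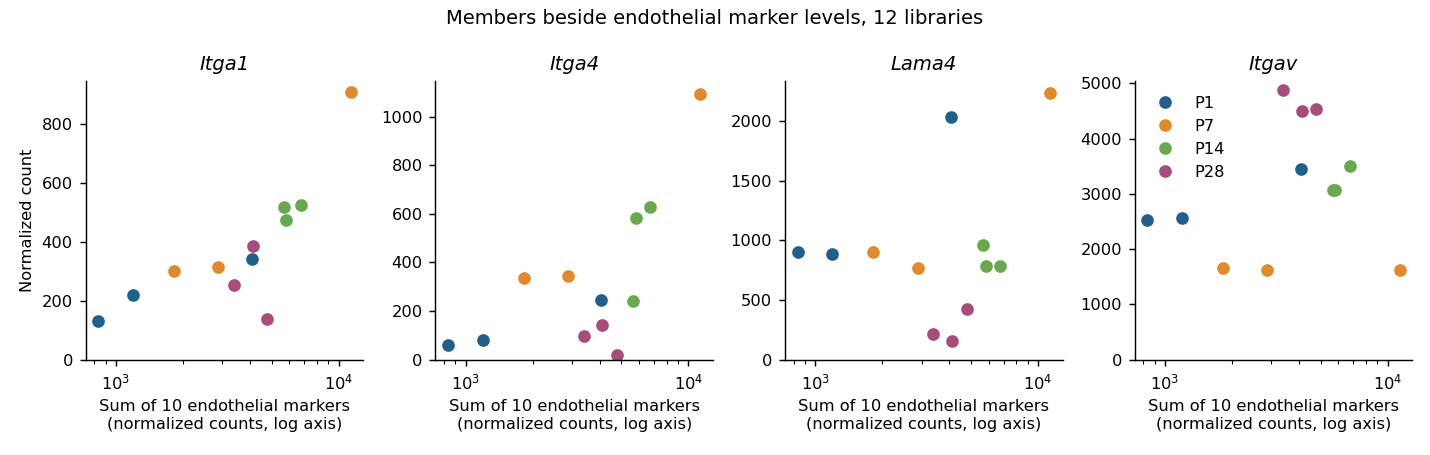
Normalized counts of Itga1, Itga4, Lama4 and Itgav in each of the 12 libraries against the summed normalized counts of 10 endothelial markers in the same library (log axis), coloured by age. The library at the right, P7 replicate 2 with a sum of 11336, holds the highest Itga1 (906), Itga4 (1093) and Lama4 (2230), and an Itgav (1619) level with the other P7 libraries. It also had the highest mural (4623), fibroblast and meningeal (21555), choroid plexus (128615) and granule neuron (8049) sums of P7. Its astrocyte sum (27608) was the lowest of the 12 libraries, so endothelial markers are not singled out.

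Integrins of leukocytes were at the edge of detection. Itgal, Itgae, Itgad, Itgax and Itgb2 had at most 49.7 normalized counts in any library, and none was called. Itgb7, the partner of alpha 4 and alpha E on lymphocytes, had at most 72.0 in 11 libraries and 257 in P28 replicate 3. The 14 markers of microglia and macrophages, cells that express Itgb2, summed to between 878 and 4619 normalized counts over the 12 libraries. Of the epithelial and platelet beta chains, Itgb6 was called in 1 step and Itgb3 and Itgb4 in none. Itgb6, the epithelial partner of alpha v, had 1.23, 0 and 0 normalized counts at P1, 19.9, 11.8 and 8.53 at P7, 0 in all 3 libraries of P14, and 39.5, 0 and 0 at P28. It was at least 4.18-fold lower at P14 than at P7 against a floor of 3 reads per library (adjusted p = 0.0378), or at least 3.17-fold lower with the library left out that lowers this bound most. It was not called by edgeR (adjusted p = 0.0721) or DESeq2 (0.0835), nor without P1 replicate 1 or 3, P7 replicate 3, or P14 replicate 1, 2 or 3 (between 0.0501 and 0.0891), nor with a pseudocount of 10 (0.107). Without P7 replicate 1, P7 replicate 2 or P28 replicate 1 it failed the filter and was not tested. The call thus held in 3 of the 9 fits with 1 library left out that tested it. Itgb3, the platelet and vessel partner of alpha v, had at most 128 normalized counts and was not called. Itgb4, the partner of alpha 6 in epithelia, was not called either, with 1173 normalized counts in P28 replicate 1 beside 156 and 101 in the other libraries of P28.

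Most further basement membrane genes were lower at P28 than at P1. Of 9 further basement membrane genes, 2 were called lower in the first step (Col4a5 and Agrn), 1 higher in the second (Sparc) and 3 lower in the last (Col4a1, Col4a2 and Col4a5). Among all genes tested, 3.91% were called lower in the first step, 10% higher in the second and 8.53% lower in the last. From P1 to P28, 7 of the 9 were lower and 1 higher, beside 18.7% and 13.3% of all genes. All 8 of these calls held with any 1 library left out. Neither call of the first step held so. That of Agrn was lost without P1 replicate 1 (adjusted p = 0.0785) or P7 replicate 3 (0.0673), and that of Col4a5 without P1 replicate 2 (0.0892), P7 replicate 1 (0.0671) or P7 replicate 2 (0.0609). Of the calls in the last step that of Col4a1 held. Nid1, which links laminin to collagen IV, fell by 1.15 over the whole span (adjusted p = 5.25e-05), with means of 6820 ± 674, 4666 ± 294, 3335 ± 565 and 3071 ± 208 normalized counts (SD, n = 3). Col4a2, a chain of that collagen, fell by 1.60 over the same span (adjusted p = 0.00883). Sparc, a collagen-binding glycoprotein that astrocytes secrete, rose by 2.15 from P7 to P14 (adjusted p = 3.61e-05). The median log2 fold change of the 9 from P1 to P28 was -1.60, beside -0.24 over all genes.

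The dystroglycan complex is the other main laminin receptor of glial endfeet. A list of the complex, enzymes that glycosylate it and Bcam, another laminin receptor, had 19 of 20 genes tested. Of these, 2 were called lower and 0 higher in the first step (limma, with 4 and 0 at an unadjusted p under 0.05), 6 higher and 1 lower in the second, and 3 higher and 2 lower in the last. Over the whole span 7 were higher and 1 lower, with a median log2 fold change of 0.51 beside -0.24 over all genes. Among all genes tested, 7.01%, 18.8% and 13.1% were called in the 3 steps and 32% over the whole span. With any 1 library left out, 1 of the 2 calls of the first step held, 3 of 7 of the second, 1 of 5 of the last and 5 of 8 over the whole span. Dag1, which encodes dystroglycan itself, fell by 1.13 in the first step (adjusted p = 0.00219) and rose by 0.90 in the second (adjusted p = 0.00364). Its means were 6999.5 ± 718, 3211 ± 449, 6101 ± 1705 and 9951 ± 1024 normalized counts, so that P7 was its lowest age as it was for Itgav, Itgb8 and Lamb2. Without P14 replicate 2 the rise was 0.69 and under the fold threshold, as it was with library totals alone (0.64). Dtna, the dystrobrevin of the complex, rose by 1.68 in the second step (adjusted p = 1.11e-05) and by 1.03 in the last (adjusted p = 0.00214).

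Among 29 adaptors that tie integrins to actin, the calls were 1 higher and 1 lower in the first step (Fermt1 and Fermt2, both kindlins), 5 higher and 1 lower in the second, and 1 higher and 3 lower in the last. From P1 to P28, 5 were higher and 2 lower. In all, 2, 6, 4 and 7 of the 29 were called in these 4 comparisons, beside 7.01%, 18.8%, 13.1% and 32% of all genes tested. All 6 calls of the second step and 5 of the 7 over the whole span held with any 1 library left out, and none of the first or the last step did. Fermt1, 1 of those 6, had means of 15.6 ± 23.3, 131 ± 56.1, 0.353 ± 0.611 and 0 normalized counts (SD, n = 3) at the 4 ages. It passed the filter mainly through P7, where it was high, so its calls to and from P7 are given as a description. The call of Fermt1 in the first step was also lost with edgeR (adjusted p = 0.198), DESeq2 (0.134) and a pseudocount of 0.1 (0.114), and that of Fermt2 (-0.79) was under the fold threshold with library totals alone (-0.74). Tns3, a tensin, rose by 0.96 from P7 to P14 (adjusted p = 0.000152, and 0.71 and under the fold threshold with library totals alone). Actn4, an actinin, was called in no comparison. Of 22 integrin ligands other than laminins, 21 were tested, and 1 was called higher and 5 lower in the first step, 3 higher and 2 lower in the second, and 1 higher and 2 lower in the last. Over the whole span 1 was higher and 8 were lower. Called in these 4 comparisons were 6, 5, 3 and 9 of the 21, beside the same shares of all genes as above. With any 1 library left out, 4 of the 6 calls of the first step held, 1 of 5 of the second, 1 of 3 of the last and 6 of 9 over the whole span. Tnc, the tenascin of the immature brain matrix, fell by 1.70 in the first step (adjusted p = 0.00127). Postn, a matrix protein of fibroblasts that alpha v integrins bind, fell by 5.74 from P1 to P28 (adjusted p = 8.13e-06). Spp1, an RGD ligand, was highest at P7, with 1137 ± 603 normalized counts against 73.2 ± 41.9 at P1 and 159 ± 59.5 at P14. Spp1 rose by 3.99 in the first step (adjusted p = 0.00274, and 0.0562 with P1 replicate 2 and P7 replicate 2 both left out).

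A list of 9 genes of TGF-beta and its carriers was taken by name, and not every member need be a ligand of alpha v beta 8. Of these, 3 were higher at P28 than at P1 and 0 were called lower (limma, with 1 lower at an unadjusted p under 0.05), where 13.3% of all genes were higher. The 3 higher genes were of the family named latent TGF-beta binding proteins, Ltbp1 (2.06, adjusted p = 0.000505), Ltbp2 (2.37, adjusted p = 0.00831) and Ltbp4 (1.66, adjusted p = 0.00514). All 3 calls held with any 1 library left out. The median log2 fold change of the 9 was 0.14, beside -0.24 over all genes. By step, 1 was higher from P1 to P7 (Ltbp2), 1 from P7 to P14 (Ltbp4) and 0 from P14 to P28 (limma, with 1 higher and 1 lower at an unadjusted p under 0.05). Among all genes tested, 3.1%, 10% and 4.58% were called higher in these 3 steps. None of the 9 was called lower in any step, and 1 was lower at an unadjusted p under 0.05 from P7 to P14. The call of Ltbp2 in the first step (2.41, adjusted p = 0.0262) was lost without P1 replicate 1 or 3 or P7 replicate 2 or 3 (adjusted p between 0.068 and 0.172). Ltbp4, a binding protein that anchors latent TGF-beta in the matrix, rose by 1.66 from P7 to P14 (adjusted p = 0.00781), with means of 261 ± 121, 299 ± 184, 854 ± 157 and 790.5 ± 229 normalized counts at the 4 ages. Lrrc32, a gene for a surface anchor of latent TGF-beta, and Tgfb2, a TGF-beta gene, were called in no comparison.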

How the data were processed

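RNA of cells sorted for GFP from Aldh1l1-GFP cerebellum was sequenced in 3 libraries at each of 4 ages. Per the submitters' processing notes, STAR (2.5.0a) aligned reads to mm10 and DESeq2 (1.30.1) normalized the counts, which the paper's methods assign to UCSC transcripts. How shared reads were treated is not given in the sources used here. The deposited values are a signal, namely counts that the authors divided by one size factor per library. Whole reads were recovered for 100% of the values (tolerance 0.01). All 12 column names carry P28, so time points rest on the labels.

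The main test was limma (3.58.1, R 4.3.3) on log2(value + 1), in one fit of the 12 libraries with a variance trend, over the 15464 genes that reached 10 in 3 or more libraries. Calls needed an adjusted p under 0.05 together with a log2 change over 0.75, and fold changes on this scale understate those of low genes. Exon lengths, with all annotated exons of a gene merged, came from GENCODE M21 on GRCm38. Counts were assigned to UCSC transcripts, so orders of genes per length depend on the lengths chosen. Any 2 libraries of an age differed beyond sampling noise (chi-square per degree of freedom at least 9.92). A gene with no read can hold up to 3 reads at 95% confidence, and floors cover counting error only. The tests were checked on simulated counts. The alternatives were edgeR (4.0.16) and DESeq2 (1.42.0) on recovered reads, other scalings, pseudocounts and filters, only the ages compared, a replicate block, other thresholds and each library left out. Leaving out P1 replicate 2 and P7 replicate 2 together was chosen after seeing the data.

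The members and lists were chosen with earlier results of these data known. Values by library are given for each member called in a step and for the 3 integrins and 3 laminins with the highest mean RPKM, and of each pathway list the 2 with the highest mean normalized count (not scaled by length) and the 2 called members with the largest change could be named. Other genes named singly or beside a count of 5 or fewer were named after their values were seen. The values of 1 member are not reported here, and counts over the members include it.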

Additional observations from a re-analysis of the deposited data

How the results depend on the processing

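Under no alternative did a called integrin, laminin or pathway gene change sign. Several alternatives could not change a sign, since they left the fold changes as they were. These were other thresholds, only the ages compared, the replicate block, and leaving out a library of an age not compared. Members were followed where the main adjusted p was under 0.05, or the unadjusted p with a change over the fold threshold. Of their values under the alternatives, 986 stayed on their side of the threshold, 84 lost the call and 60 gained one. The count of members called moved by over 1.5 times in several settings, most often from P7 to P14. From P7 to P14, where it was 4, it was 2 with edgeR, 2 with a filter of 10 or more reads in each library (21 members and 10911 genes), 8 with only the time points compared, 8 at an unadjusted p under 0.05, 7 without the fold change threshold, and 2 with P1 replicate 2 and P7 replicate 2 both left out. From P14 to P28, where it was 8, it was 5 with that filter on reads, 4 with only the time points compared and 5 with those 2 libraries left out. From P1 to P7, where it was 4, it was 7 with only the time points compared, 8 at an unadjusted p under 0.05 and 2 with those 2 libraries left out. With 1 library left out the counts ranged from 3 to 5 from P1 to P7, and from 1 (without P14 replicate 2) to 7 (without P28 replicate 1) from P7 to P14, where it was 2 without P1 replicate 1, P7 replicate 2 or 3, or P14 replicate 1. They ranged from 4 (without P14 replicate 1 or 2) to 11 (without P28 replicate 1) from P14 to P28, and from 9 (without P1 replicate 2) to 14 (without P28 replicate 1) from P1 to P28. The cause of these shifts was not tested. With the replicate number as a block the counts were 5, 3, 8 and 11, against 4, 4, 8 and 11 without it. The numbers were not taken to pair the libraries, since only 1 of 18 same-numbered pairs of deviations had a correlation over 0.1 (range -0.03 to 0.14). In 25 of 36 comparisons the best match had the same number, against 12 if numbers were unrelated, a hint of pairing from the data and not from the design. With library totals alone the median change of all genes on the log2 scale was 0.10, -0.34, -0.35 and -0.66, and the share of rising genes among all genes called went from 44.3%, 53.2%, 34.9% and 41.6% to 50.3%, 33.2%, 16.6% and 20.4%. Members called were then 0 higher and 3 lower, 1 and 2, 1 and 7, and 2 and 12. Depth limits the 8 members with under 60 reads in every library, where an absent call says little.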
